A study of Homo sapiens with 6 samples.

Results

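The genes described here are 10 members of the YAP/TEAD axis: the secreted matricellular proteins CCN1 and CCN2, the further targets ANKRD1, AXL, AMOTL2 and LATS2, the LATS inhibitor AJUBA, the coactivators YAP1 and WWTR1, and the DNA-binding protein TEAD1. They are 10 of the 60676 genes listed in the deposited tables, and all 10 were found by matching their Ensembl identifiers to the gene symbols of GENCODE release 44. The group was chosen by its measured normalized counts in these same libraries, the large change of CCN1 under histidine depletion among them, so the levels and changes of the 10 genes are given as a description and carry no p-value. RNA was sequenced from HT29, a human colorectal adenocarcinoma cell line without a genetic modification named in the labels, after 48 h in one of 3 media. The untreated group received control medium, the histidine-depleted group medium lacking histidine, and the tryptophan-depleted group medium lacking tryptophan, with 2 libraries in each group and 6 in all. In the study's methods, medium without histidine had an RPMI base and medium without tryptophan a DMEM/F-12 base, both with dialyzed serum, while the section on RNA sequencing says only control medium. Full RPMI medium is named as the control of other experiments of the study, and if it was used here too, the histidine comparison shares its base and the tryptophan comparison does not. For the sequenced cells the base and the missing amino acid cannot be told apart from what is stated. Whether the 2 libraries of a group came from separate cultures is not stated either. Every p-value below measures only spread between libraries, which may be technical, with each gene's variance drawn toward a trend over all genes.

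YAP (encoded by YAP1) and TAZ (encoded by WWTR1) are transcriptional coactivators that have no DNA-binding domain and reach DNA mainly through TEAD proteins. The Hippo kinases, MST and then LATS, phosphorylate YAP and TAZ, which holds them in the cytoplasm or sends them to degradation, while spreading, stiffness and actin tension keep them in the nucleus. CCN1 (CYR61) and CCN2 (CTGF) are the targets most often read as a measure of YAP and TEAD activity, although serum response factor, AP-1 and TGF-beta signalling also act on both genes. In the intestine YAP is known above all for its part in regeneration after injury and in colorectal tumours.

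The promoters of the targets are shown first because the TEAD core, the letters GGAATG, is the sequence by which TEAD proteins recognise DNA. It was searched on both strands of the 250 bases before each start site in the RefSeq promoter table (GRCh38.p14), which held 12 windows of 8 of the 10 genes; CCN1 and TEAD1 had no entry. The core stood in 6 of the 12 windows and in 6 of the 8 genes, whereas 11.9% of all 35116 windows of the same length and 14.3% of all 27305 genes held it. CCN2 had 3 copies, a number reached by 0.0826% of all windows, and ANKRD1 had 2 copies, which 0.94% of all windows equalled or exceeded. The CCN2 window covers chr6:131951373-131951622 and the ANKRD1 window chr10:90921088-90921337, both on the minus strand, and in both sequences the capitals mark the core and the last base lies next to the start site.
CCN2: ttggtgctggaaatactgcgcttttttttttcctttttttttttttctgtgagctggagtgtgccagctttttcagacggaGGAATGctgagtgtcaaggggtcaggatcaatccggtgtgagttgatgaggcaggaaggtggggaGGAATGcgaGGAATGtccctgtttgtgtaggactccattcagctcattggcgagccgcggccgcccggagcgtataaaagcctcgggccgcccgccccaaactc
ANKRD1: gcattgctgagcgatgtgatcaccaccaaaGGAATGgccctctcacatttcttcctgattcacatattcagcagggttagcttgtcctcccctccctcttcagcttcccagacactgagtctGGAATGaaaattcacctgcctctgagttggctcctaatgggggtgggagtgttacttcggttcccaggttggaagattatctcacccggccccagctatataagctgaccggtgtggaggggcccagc
The 3 cores of CCN2 began at bases -169, -104 and -95 from the start site, and those of ANKRD1 at bases -220 and -128, all 5 on the strand of the gene. The windows of YAP1, AJUBA, AMOTL2 and AXL held 1 core each, for AJUBA, AMOTL2 and AXL in the second of 2 listed start sites only. These sites are shown with 10 bases on each side, to let the neighbouring letters be compared with those in CCN2, and CATTCC in capitals is the core read on the opposite strand.
YAP1: symbol  promoter
YAP1    1           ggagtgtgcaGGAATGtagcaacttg
Name: site_with_flanks, dtype: object
AJUBA: symbol  promoter
AJUBA   2           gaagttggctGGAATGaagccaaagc
Name: site_with_flanks, dtype: object
AMOTL2: symbol  promoter
AMOTL2  2           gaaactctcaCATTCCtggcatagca
Name: site_with_flanks, dtype: object
AXL: symbol  promoter
AXL     2           gactttgcacCATTCCactccctccg
Name: site_with_flanks, dtype: object
No window of LATS2 or WWTR1 held these letters. The AP-1 site TGAGTCA, which overlaps none of the cores, was in 0 of the 12 windows against 4.2% of all windows, and the CArG box of serum response factor was in 0 against 1.16%. With shares this low, 0 of 12 windows does not set these genes apart, and CCN1 was not among them. A match is a string of letters and was not tested as a binding site.

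**Figure D1:**
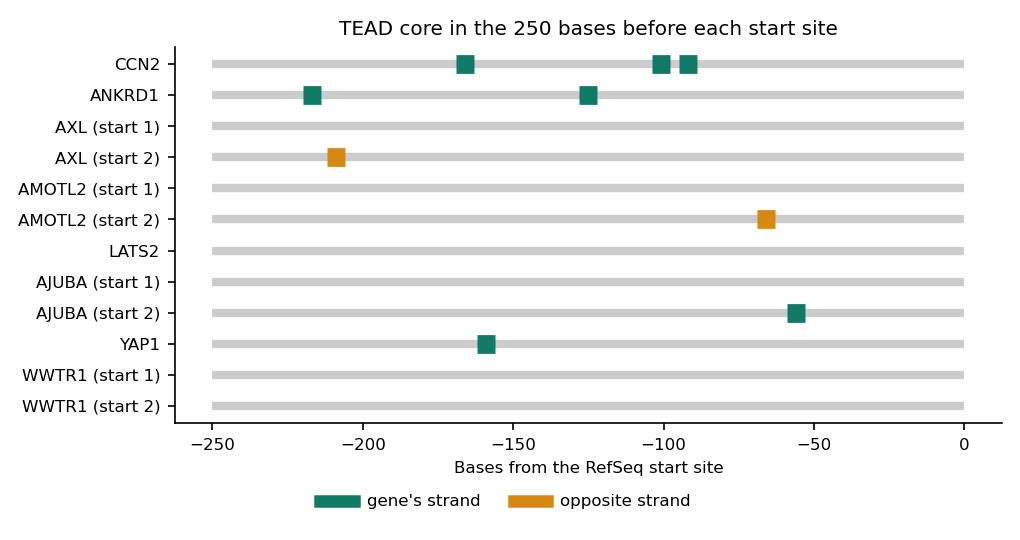
Positions of the TEAD core in the 250 bases before each RefSeq start site of the 8 genes that have a window. The x axis gives the distance from the start site in bases, each grey bar is 1 of 12 windows, and colour gives the strand of the core. CCN2 holds 3 cores and ANKRD1 holds 2, while the windows of LATS2 and WWTR1 hold 0.

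The 6 libraries held 46390819 to 64388876 reads counted in genes, recovered as whole reads from the deposited normalized counts. Markers of colon epithelium were detected for 10 of 10 genes fixed as markers, although CDX1 was at 0 in both histidine-depleted libraries, 2.75 and 5.34 in the tryptophan-depleted ones and 18.9 and 21.9 in the untreated ones. The sum over the epithelial list was 448603 to 476607 in untreated, 583286 to 616402 in histidine-depleted and 631429 to 635308 in tryptophan-depleted cells. Its genes differed among themselves, KRT20 standing at 10264 and 10759 in untreated, 34599 and 35063 in histidine-depleted and 55379 and 54901 in tryptophan-depleted cells, and LGALS4 at 54147 and 56465, then 17513 and 19660 without histidine and 60596 and 59473 without tryptophan. Of 7 fibroblast markers 1 (COL1A1) exceeded 10 normalized counts in any library, COL1A2 was at 0 in all 6, and the sum over the list was 75.6 to 76.5 in untreated, 35.2 to 42.7 in histidine-depleted and 60.8 to 71.4 in tryptophan-depleted cells. Of 4 endothelial markers 2 exceeded 10, CDH5 and KDR had at most 1 read in a library, and the sums ran from 40.8 to 55.7, 50.9 to 51.5 and 26.6 to 28.8 in the same order. The 2 detected endothelial markers went opposite ways without histidine, PECAM1 from 48.1 and 36.8 to 8.13 and 9.16 and VWF from 7.65 and 3.98 to 42.5 and 40.7. Of 5 leukocyte markers only LYZ, a gene that gut epithelial lines also express, exceeded 10, with list sums of 64763 to 69385, 12423 to 14443 and 38033 to 38061. The part of such cells in the results below was not tested.

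Levels below are normalized counts with all 6 libraries on 1 scale, given as replicate 1 and replicate 2, whereas each log2 fold change with its standard error (SE) comes from a limma fit of the comparison itself. The SE uses a variance moderated by a trend over all genes, so it can be smaller than a gene's own spread. In bulk RNA, fewer cells with a transcript and less RNA per cell cannot be told apart. CCN1 (ENSG00000142871, GRCh38 chr1:85580761-85584589, plus strand) was at 414 and 438 in untreated, 19560 and 18983 in histidine-depleted and 784 and 838 in tryptophan-depleted cells. The 3 groups did not overlap, and the histidine-depleted mean was 45.2 times the untreated mean. The log2 fold change of CCN1 was 5.51 ± 0.0539 (SE, n = 2 per group) under histidine depletion and 0.92 ± 0.0775 under tryptophan depletion, and the direct difference between the depletions was 4.57 ± 0.0513. CCN2 (ENSG00000118523, chr6:131948176-131951372, minus strand) was at 715 and 710.2 in untreated, 12392 and 11972 in histidine-depleted and 2354 and 2866 in tryptophan-depleted cells. Its groups did not overlap either, and it was higher in both depletions, by 4.10 ± 0.0524 on the log2 scale without histidine and 1.86 ± 0.0610 without tryptophan. Leaving out a library gave 1.71 to 2.01 for the change without tryptophan. So CCN2 stood 17.1-fold and 3.66-fold above untreated cells, CCN1 45.2-fold and 1.90-fold. Of the exonic length of CCN2, 11.9% lies opposite LINC01013, which was listed at 0 in all 6 libraries. The study's methods speak of counting in protein-coding genes only, but 9508 of the 16739 long non-coding RNA genes in the tables had reads, so such genes were counted, though by what rule for shared bases is not given in the sources used here.

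**Figure D2:**
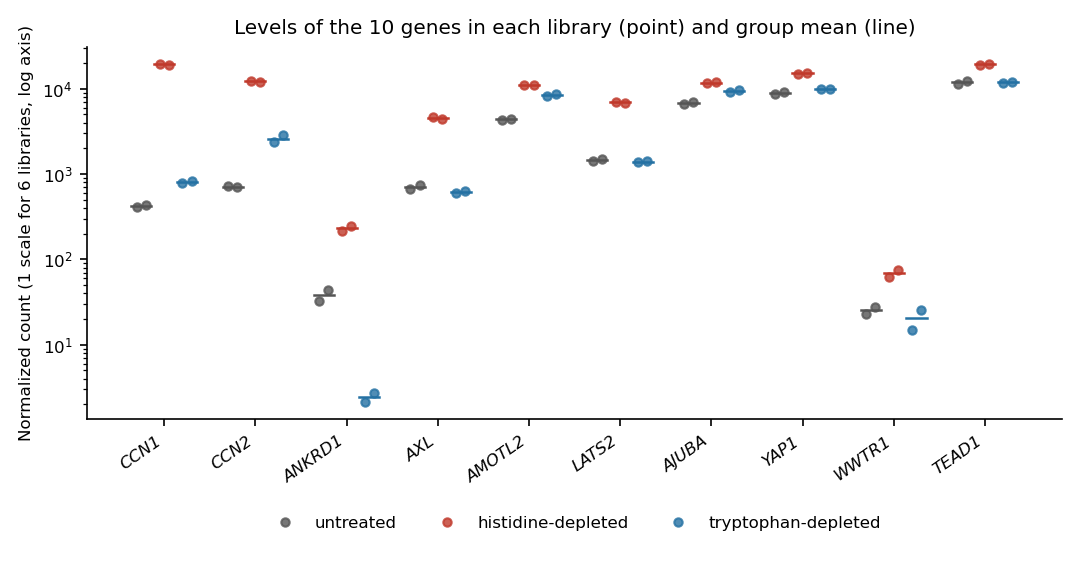
Normalized counts (log axis) of the 10 genes in each library, with all 6 libraries on 1 scale. Points are the 2 libraries of each group and lines are group means. CCN1 runs from 414 and 438 in untreated to 19560 and 18983 in histidine-depleted cells, and ANKRD1 from 214 and 246 without histidine to 2.13 and 2.75 without tryptophan.

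ANKRD1, a nuclear ankyrin-repeat protein of muscle and a classical YAP target, went opposite ways in the 2 depletions. It was at 32.8 and 43.8 in untreated, 214 and 246 in histidine-depleted and 2.13 and 2.75 in tryptophan-depleted cells. These levels rest on 74 reads in the 2 untreated and 5 reads in the 2 tryptophan-depleted libraries. Every histidine-depleted library was above and every tryptophan-depleted library below both untreated ones. The log2 fold changes were 2.58 ± 0.179 and -3.50 ± 0.456, and the second depends on the pseudocount, being -2.13 with a pseudocount of 8 and -3.98 with DESeq2. From the reads alone ANKRD1 was 15.6-fold lower under tryptophan depletion, with an exact 95% interval of 6.41 to 49.6 that covers counting error only. ANKRD1 shares no exonic bases with another gene.

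AXL, a receptor tyrosine kinase that binds GAS6, was at 661 and 749.9 in untreated, 4705 and 4433 in histidine-depleted and 594 and 626 in tryptophan-depleted cells. Like ANKRD1 it was above the untreated libraries without histidine and below them without tryptophan, but the second step was small. The log2 fold changes of AXL were 2.7045 ± 0.0640 and -0.21 ± 0.0749, and the direct difference between the depletions was 2.90 ± 0.0637.

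LATS2 and AMOTL2, which restrain YAP, and AJUBA, which restrains LATS, were higher without histidine as well. LATS2, the kinase that phosphorylates YAP and is itself a YAP target, was at 1421 and 1485 in untreated, 7036 and 6845 in histidine-depleted and 1372 and 1434 in tryptophan-depleted cells. Its untreated and tryptophan-depleted libraries overlapped, with a log2 fold change of -0.06 ± 0.0578, against 2.26 ± 0.0527 without histidine. AMOTL2, an angiomotin family scaffold that binds YAP at junctions and is induced by it, was at 4334 and 4431 in untreated, 10968 and 11072 in histidine-depleted and 8300 and 8661 in tryptophan-depleted cells. Its 3 groups did not overlap, and its log2 fold changes were 1.34 ± 0.0489 and 0.94 ± 0.0468. AJUBA, a LIM protein that binds LATS kinases and limits their activity, was at 6640 and 6999, then 11725 and 11938 without histidine and 9177 and 9686 without tryptophan. Its log2 fold changes were 0.80 ± 0.0501 and 0.46 ± 0.0469, and its 3 groups did not overlap.

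YAP1 and TEAD1 had the smallest log2 fold changes of the members under histidine depletion, with AJUBA close to them. When a library was left out, AJUBA ran from 0.76 to 0.85 and YAP1 from 0.72 to 0.81, so these 2 were not separated. YAP1 was at 8689 and 9228 in untreated, 14900.4 and 15321 in histidine-depleted and 9880.2 and 9892 in tryptophan-depleted cells, with log2 fold changes of 0.76 ± 0.0510 and 0.14 ± 0.0467. TEAD1 was at 11477 and 12342 in untreated, 19211 and 19398 in histidine-depleted and 11823 and 12094 in tryptophan-depleted cells. The tryptophan-depleted libraries of TEAD1 lay between the untreated ones, while the histidine-depleted libraries were above all others, with a log2 fold change of 0.71 ± 0.0523. These changes of YAP1, TEAD1 and AJUBA under histidine depletion were smaller after quantile normalization, at 0.52, 0.45 and 0.56, with the same sign, and that of YAP1 under tryptophan depletion was 0.073. WWTR1, the gene of TAZ, was the least abundant member in untreated and histidine-depleted cells, at 23.0 and 27.8 in untreated, 62.3 and 74.3 in histidine-depleted and 14.9 and 25.6 in tryptophan-depleted cells. Its log2 fold change was 1.40 ± 0.243 without histidine and -0.36 ± 0.334 without tryptophan, where its libraries overlapped the untreated ones. Opposite-strand genes cover 10.1% of the exonic length of YAP1 and 9.05% of that of WWTR1, and whether the counting used strand is not given in the sources used here. WWTR1-AS1 was listed at 0 in all 6 libraries, and the opposite-strand gene detected at YAP1 (ENSG00000277459) was at 6.41 to 35.2.

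Counted over the members, 10 of 10 were higher in both histidine-depleted libraries than in both untreated ones and 0 were lower, while over all 18288 genes tested 44.3% were higher and 43.9% lower without overlap. Under tryptophan depletion 5 members were higher (CCN1, CCN2, AMOTL2, AJUBA, YAP1), 2 were lower (ANKRD1, AXL) and 3 overlapped (LATS2, WWTR1, TEAD1), beside 43.1% higher and 41.2% lower of 17960 genes. Between the depletions all 10 were higher without histidine than without tryptophan, beside 44.7% higher and 43.8% lower of 18264 genes. The median log2 fold change of the members was 1.83 in the first comparison, 0.067 in the second and 1.99 in the third, against 0.010, 0.013 and 0.011 over all genes. Since the members were selected on these values, nothing is read from the counts. All 10 passed the filter of a mean normalized count of 10 in every comparison, and did so in the untreated group alone. The comparisons with untreated cells share the same 2 untreated libraries.

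**Figure D3:**
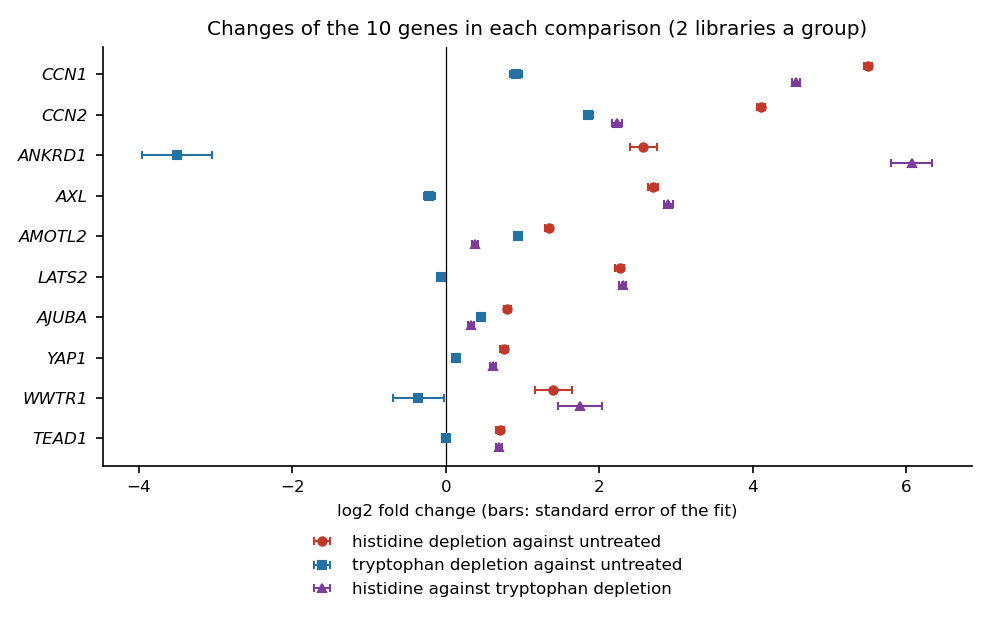
log2 fold changes of the 10 genes, with bars for the SE of the limma fit, for each depletion against untreated cells and for histidine against tryptophan depletion (n = 2 libraries per group). CCN1 is farthest to the right under histidine depletion, at 5.51, and ANKRD1 farthest to the left under tryptophan depletion, at -3.50.

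Between genes, levels were compared as normalized counts per kilobase of exon. In untreated cells YAP1 was highest, at 1420 ± 60.4 per kb (SD, n = 2), followed by AJUBA, TEAD1, AMOTL2, CCN2, LATS2, AXL, CCN1, ANKRD1 and WWTR1, and in this order only AJUBA and TEAD1 overlapped. CCN1 was the eighth of the 10 at 115 ± 4.47 per kb and CCN2 the fifth at 305 ± 1.41 per kb. In histidine-depleted cells these 2 genes came first, CCN1 at 5211 ± 110.2 and CCN2 at 5210.5 ± 127 per kb, and their libraries overlapped. They stood at ranks 370 and 371 of 19892 protein-coding genes by level per kb, from ranks 8576 and 5823 in untreated cells. YAP1 followed at 2394 ± 47.2 per kb, and the order of the other 7 was AJUBA, TEAD1, AMOTL2, LATS2, AXL, ANKRD1 and WWTR1, with no overlap between neighbours. In tryptophan-depleted cells AJUBA and YAP1 led with overlapping libraries, at 1603 ± 61.1 and 1566 ± 1.31 per kb. AMOTL2 came next at 1309 ± 39.4 per kb, then TEAD1 and CCN2, which overlapped at 1118 ± 17.9 and 1116 ± 155 per kb. CCN1 was the seventh there, at 219 ± 10.2 per kb and rank 6774, between LATS2 and AXL, and ANKRD1 was last at 1.36 ± 0.242 per kb.

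**Figure D4:**
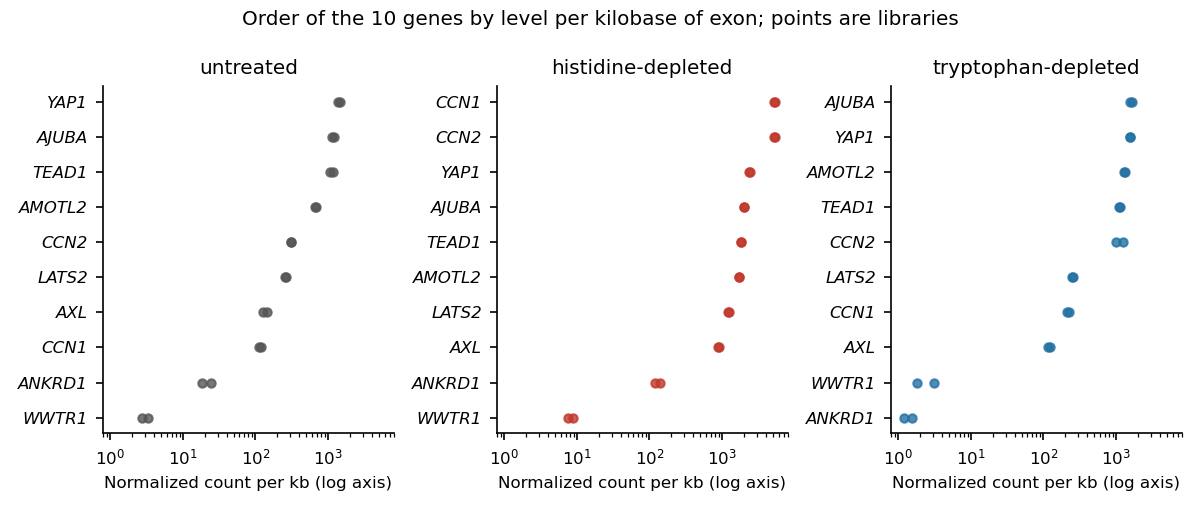
Levels of the 10 genes in normalized counts per kilobase of exon (log axis), ordered from highest to lowest within each group, with 1 point per library. CCN1 and CCN2 stand in places 8 and 5 in untreated cells, 1 and 2 in histidine-depleted cells and 7 and 5 in tryptophan-depleted cells.

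Genes around the axis were taken from 10 lists of 155 distinct genes, from which the members were left out. The lists were chosen with earlier results of these data known, so their counts are a description. Of 139 list genes tested under histidine depletion, 85 rose and 36 fell at an adjusted p under 0.05 (limma, Benjamini-Hochberg over all genes), with a median log2 fold change of 0.52. Over all genes 39.1% rose and 38.2% fell. Under tryptophan depletion 59 of 137 rose and 45 fell, with a median of 0.071, beside 36.1% and 34.8% of all genes. In the direct comparison 95 of 138 were higher without histidine and 31 higher without tryptophan, with a median of 0.54, beside 38.7% and 38% of all genes. The shares over all genes stand beside each list count below as well. The genes named below were those with the largest changes past the threshold within each list, and not every one the rule selects is reported.

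Of 25 other YAP/TEAD targets listed, 19 were tested under histidine depletion. Of these 15 rose and 3 fell, beside 39.1% and 38.2% of all genes, with a median log2 fold change of 1.201. Under tryptophan depletion 9 of 18 targets tested rose and 7 fell, beside 36.1% and 34.8% of all genes, with a median of 0.12. That second median was 0.00063 without the filter on low values. TGFB2, a ligand of the TGF-beta receptors, was at 139 and 145 in untreated, 2313 and 2284 in histidine-depleted and 243 and 241 in tryptophan-depleted cells. It rose by 4.02 ± 0.0790 on the log2 scale without histidine (adjusted p = 1.02e-22, limma) and by 0.76 ± 0.126 without tryptophan (adjusted p = 4.49e-08). THBS1, a matricellular glycoprotein that can activate latent TGF-beta, was at 996 and 1021 in untreated, 14287 and 13060 in histidine-depleted and 1740.4 and 1999.8 in tryptophan-depleted cells. Its levels followed the same order of groups as those of CCN1, with changes of 3.77 ± 0.0545 and 0.88 ± 0.0596. GADD45A, a stress-induced growth arrest gene, rose by 2.40 ± 0.0588 and 0.41 ± 0.0595. Some targets fell instead. CAVIN2, a caveolar coat protein, was at 141 and 179 in untreated cells and fell in both depletions, to 94.0 and 98.7 without histidine and to 24.5 and 21.98 without tryptophan. BIRC5, the mitotic protein survivin, was at 4833 and 5127 in untreated and 4672 and 4805 in histidine-depleted cells, and fell by 2.19 ± 0.0525 on the log2 scale without tryptophan, to 1050.0 and 1151. Its change of -0.06 ± 0.0513 without histidine did not pass the test, but did after quantile normalization (-0.22) or without untreated replicate 1 (-0.11).

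Of 35 Hippo kinases and scaffolds tested, 23 rose and 7 fell under histidine depletion (median log2 fold change 0.41), and 12 rose and 10 fell under tryptophan depletion (median -0.01). FRMD6, a FERM-domain scaffold upstream of the Hippo kinases, was at 163 and 195 in untreated, 1692 and 1552 in histidine-depleted and 70.4 and 76.9 in tryptophan-depleted cells. It rose 9.07-fold without histidine and fell by 1.27 ± 0.159 on the log2 scale without tryptophan, the same opposite directions as ANKRD1 and AXL. WWC3, a scaffold of the KIBRA family, rose in both, from 412 and 423 to 1383 and 1426 and to 1182 and 1160.1. MAP4K2, a kinase that can phosphorylate LATS, fell from 2032 and 2083 to 478 and 538 without histidine, and was at 2004 and 2014 without tryptophan. MAP4K4, a related kinase, fell in both, by 0.47 ± 0.0530 and 0.81 ± 0.0476.

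Among junction proteins, LIM proteins and other partners of YAP and LATS, 17 of 28 rose and 9 fell without histidine, and 14 rose and 8 fell without tryptophan. WTIP, a LIM protein of the AJUBA family, rose by 1.41 ± 0.102 and 0.57 ± 0.111, and RASSF1, a scaffold that binds MST kinases, by 1.46 ± 0.0624 and 0.59 ± 0.0614. AMOT, the founding angiomotin, fell in both depletions, from 122 and 140.2 in untreated cells to 38.9 and 42.7 and to 13.9 and 32.0, whereas its relative AMOTL2 was higher in both. YWHAH, a 14-3-3 protein of the kind that retains phosphorylated YAP in the cytoplasm, fell by 0.53 ± 0.0505 and 1.41 ± 0.0497. BTRC, the F-box subunit of a ubiquitin ligase that acts on YAP, rose by 0.58 ± 0.0585 and 0.89 ± 0.0554.

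Of the 6 TEAD and VGLL genes tested, 2 rose and 3 fell under histidine depletion, and 1 rose and 4 fell under tryptophan depletion. TEAD2 was at 4855 and 5005 in untreated, 1103 and 1302 in histidine-depleted and 2491 and 2550.1 in tryptophan-depleted cells, a fall of 2.03 ± 0.0637 and 0.98 ± 0.0487 on the log2 scale. TEAD4 fell by 0.57 ± 0.0631 and 0.40 ± 0.0564. The VGLL proteins are cofactors that bind TEADs in place of YAP. VGLL3 rose from 102 and 78.6 to 351 and 294 without histidine and fell to 44.8 and 48.5 without tryptophan. VGLL4, a competitor of YAP, rose by 0.78 ± 0.0623 without histidine, and its change of -0.07 ± 0.0636 without tryptophan did not pass the test. VGLL1 fell by 1.45 ± 0.111 without tryptophan, and its change of -0.01 ± 0.0989 without histidine did not pass.

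**Figure D5:**
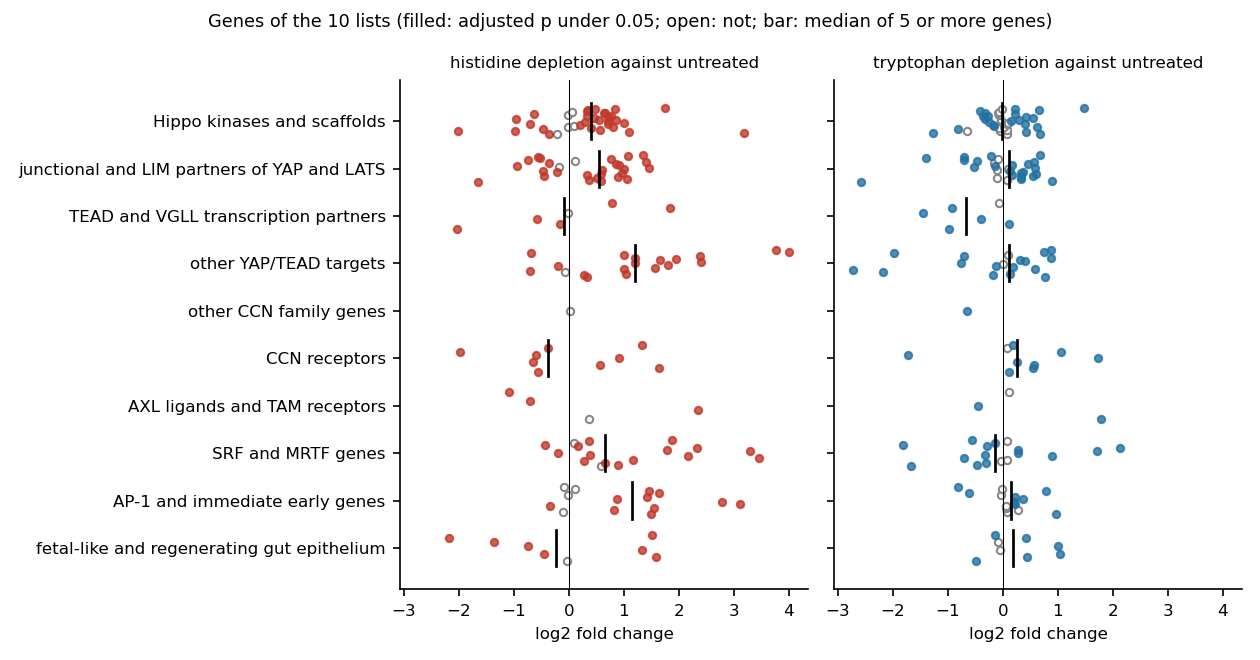
log2 fold changes of the list genes under histidine depletion (left) and tryptophan depletion (right), with 1 point per gene. Filled points passed an adjusted p under 0.05, open points did not, and bars are medians of lists with at least 5 genes tested. Other YAP/TEAD targets have their median at 1.201 on the left and 0.12 on the right, the latter 0.00063 without the filter on low values.

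Receptors and ligands tied to the members divided. Of the other CCN family genes only CCN3, named after its values were seen, passed the filter. Its change did not pass the test under histidine depletion, and under tryptophan depletion it fell by 0.65 ± 0.270 on the log2 scale, a call lost without the filter on low values (-0.65), with DESeq2 (-0.69) or without untreated replicate 2 (-0.44) or tryptophan-depleted replicate 2 (-0.57). Of 9 receptors of CCN proteins, 4 rose and 5 fell without histidine, and 7 rose and 1 fell without tryptophan. ITGAV, the alpha v integrin chain, rose in both depletions, from 6748 and 7286 to 22113 and 21311 and to 10153 and 10535. ITGB6 and ITGB8, which pair with alpha v, moved apart, ITGB6 rising by 0.92 ± 0.0556 and 1.74 ± 0.0508 and ITGB8 falling by 0.59 ± 0.0664 and 1.73 ± 0.0749. SDC4, a heparan sulfate proteoglycan, rose by 1.33 ± 0.0507 without histidine. LRP1, an endocytic receptor, fell from 8872 and 10115 to 2177 and 2609 without histidine and rose to 20533 and 19171 without tryptophan. For AXL, the related receptor MERTK rose in both, from 143 and 156 to 788 and 733 and to 500.5 and 548, while TYRO3 fell by 1.08 ± 0.0761 without histidine and its change of 0.11 ± 0.0637 without tryptophan did not pass the test, but did after quantile normalization (0.21). The ligand PROS1 fell in both, by 0.71 ± 0.0550 and 0.44 ± 0.0508.

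Lists of factors that share targets with YAP were also counted. Of 17 SRF and MRTF genes, 13 rose and 2 fell under histidine depletion (median log2 fold change 0.65), 5 rose and 9 fell under tryptophan depletion (median -0.14), and 16 were higher without histidine than without tryptophan in the direct test. FILIP1L was at 290 and 300.4 in untreated, 3337 and 3184 in histidine-depleted and 192 and 172 in tryptophan-depleted cells, the opposite directions again. MYL9, the regulatory light chain of myosin, and TAGLN, an actin-binding protein, rose in both. MYL9 went from 181 and 234 to 1943 and 2109 and to 619 and 749.9. TAGLN went from 874 and 894 to 4275 and 4627 and to 3676 and 4132, and the direct difference between the depletions was 0.19 ± 0.0561 on the log2 scale, which was not called after quantile normalization (0.099), without the variance trend, without histidine-depleted replicate 2 (0.13) or without tryptophan-depleted replicate 1 (0.11). Of 14 AP-1 and immediate early genes, 9 rose and 1 fell without histidine, and 6 rose and 2 fell without tryptophan. FOSB rose by 3.12 ± 0.0588 and FOSL1 by 2.79 ± 0.0491 without histidine, against 0.23 ± 0.0736 and 0.21 ± 0.0520 without tryptophan. The smaller change of FOSB was not called with DESeq2, and that of FOSL1 not without tryptophan-depleted replicate 2 (0.16). ATF3 and JUNB rose in both depletions, ATF3 by 1.49 ± 0.0515 and 0.98 ± 0.0502 and JUNB by 1.47 ± 0.0604 and 0.78 ± 0.0526. MYC, an immediate early transcription factor, fell by 0.81 ± 0.0473 without tryptophan, and its change of -0.08 ± 0.0520 without histidine did not pass the test, but did after quantile normalization (-0.34), with edgeR (-0.089) or without untreated replicate 1 (-0.13). JUN, a dimer partner of the FOS proteins, rose from 5903 and 6420.3 to 19138 and 18876 without histidine and fell to 3909 and 4215 without tryptophan.

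Genes of the fetal-like state that regenerating gut epithelium takes on did not move as 1 group. Of 8 tested, 3 rose and 4 fell under histidine depletion, and 4 rose and 2 fell under tryptophan depletion. ANXA3, a calcium-dependent phospholipid-binding protein, rose by 1.58 ± 0.0547 without histidine. MSLN, mesothelin, fell from 634 and 692 to 144 and 146 without histidine and rose to 876 and 914 without tryptophan. AREG and EREG, ligands of the EGF receptor, fell by 0.44 ± 0.0624 and 0.74 ± 0.0501 without histidine and rose by 1.05 ± 0.0482 and 1.00 ± 0.0473 without tryptophan.

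The genes whose pattern over the 6 libraries was most like that of CCN1 or CCN2 were found among 11414 protein-coding genes, by the root mean square distance of log2 levels set relative to the untreated mean. This likeness describes 6 libraries in 3 groups and was not tested. Nearest to CCN1 was ETS1, a transcription factor, at 879 and 985 in untreated, 40547 and 38372 in histidine-depleted and 1710 and 1717 in tryptophan-depleted cells, a distance of 0.07. Next came H2BC4, HDAC9, H2BC8 and NEURL3, at distances of 0.11 to 0.26. In untreated cells H2BC4 was at 32.8 and 36.8 and HDAC9 at 82.0 and 74.6. H2BC8 was at 47.0 and 51.7 there and NEURL3 at 30.6 and 33.8, so that their distances rest on low untreated levels. Nearest to CCN2 were SIRT4 (0.11), H2BC18 (0.13), TNFRSF10D (0.15), FERMT2 (0.24) and CLEC18B (0.26). Of these 5, only TNFRSF10D, a decoy receptor for TRAIL, was abundant in untreated cells, at 1283 and 1252, rising to 19209 and 18586 without histidine and 4308 and 4373 without tryptophan. H2BC4, H2BC8, H2BC18 and CLEC18B have near-identical copies in the genome, so that their counts are uncertain. CCN2 was in place 40 by distance from CCN1, at 0.98, and CCN1 in place 121 from CCN2. Among the other members AXL came nearest to CCN1, in place 185 at 1.75, and also nearest to CCN2, in place 340 at 1.45.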

How the data were processed

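Stranded poly(A) RNA libraries of 6 HT29 samples (3 groups of 2) were sequenced by the authors in paired-end mode. Per the submitters' processing notes and the study's methods, reads were aligned to GRCh38 with STAR 2.7.10a, counted in exons with HTSeq 2.0.5 (of protein-coding genes by the methods, although the tables also hold reads of non-coding genes) and divided by DESeq2 size factors; the use of molecular identifiers, strand and multimapping reads is not given in the sources used here. The deposited signal is this normalized count, in 1 table per depletion, each holding the same untreated libraries and normalized separately. All values were whole multiples of the value of 1 read (tolerance 0.01 reads), so reads were recovered, and the untreated reads were identical from both tables. The smallest and largest library held 46390819 and 64388876 reads, so that counting error among the members matters most for ANKRD1 and WWTR1.

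Levels are recovered reads scaled jointly over the 6 libraries (median of ratios). Each depletion was compared with untreated cells in its own table, and the depletions with each other on the jointly scaled values of all 6 libraries, by limma 3.58.1 with a trended variance, in two-sided tests. Values entered as log2(normalized count + 1), genes under a mean of 10 were left out, and p-values had Benjamini-Hochberg adjustment over all genes, with a threshold of 0.05. The fits were also run on simulated counts in which far fewer genes changed than were called here. Error rates at the present share of changed genes were therefore not tested. Gene symbols, exons and coordinates are from GENCODE release 44 (60357 of 60676 identifiers matched), and promoters from RefSeq (GRCh38.p14). Alternatives were other pseudocounts, filters and normalizations, edgeR 4.0.16, DESeq2 1.42.0, other library sets, a replicate block and leaving out each library. R 4.3.3, Python 3.11.15 and pandas 2.3.3 were used for the remaining steps.

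The members and the gene lists were chosen with earlier results of these data known. All members were named. From each list and comparison with untreated cells, up to 3 genes with the largest change past the threshold, a mean of at least 100 in the higher group and no overlap between groups could be named, and the 5 profiles nearest to CCN1 and to CCN2; 2 of these list genes are not reported here.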

Additional observations from a re-analysis of the deposited data

Results flagged for a closer look

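Genes were picked out when both libraries of one depletion lay above both untreated libraries and both libraries of the other lay below them. Of the members, ANKRD1 and AXL were higher without histidine and lower without tryptophan, with histidine minus tryptophan log2 differences of 6.07 and 2.90. That of ANKRD1 rests on 5 reads in the tryptophan-depleted libraries and was 4.51 with a pseudocount of 8 and 6.55 with DESeq2. Of 42 list genes covered by the naming rule, 10 met the same condition. The condition fixes the sign of the difference between the depletions, so the differences are given as values on the log2 scale, without a p-value. Higher without histidine and lower without tryptophan were FRMD6 (4.44), FILIP1L (4.16), VGLL3 (2.76), JUN (2.23) and VGLL4 (0.83). Lower without histidine and higher without tryptophan were LRP1 (-3.06), MSLN (-2.62), EREG (-1.75), AREG (-1.51) and TYRO3 (-1.21). For VGLL4 the change against untreated cells under tryptophan depletion did not pass the test and had the other sign after quantile normalization (0.037 in place of -0.071 on the log2 scale), and for TYRO3 it did not pass as reported (0.11) but did after quantile normalization (0.21).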

How the results depend on the processing

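The number of genes called stayed within 1.5 times that of the reported fit under every alternative run, as did the list genes called in each direction. It was 14130 as reported and 11708 to 15016 over the alternatives for histidine depletion, 12721 and 10777 to 12912 for tryptophan depletion, and 14006 and 11811 to 15233 between the depletions. With the replicate block, 14432, 12766 and 14069 genes were called. Deviations of same-numbered libraries correlated at 0.12 (untreated and histidine-depleted), -0.05 (untreated and tryptophan-depleted) and -0.10 (the depletions). These values cannot show whether same-numbered libraries share a culture or a preparation, which is not stated. Between the depletions, chosen after seeing the data, the block over the 4 depleted libraries called 14335 genes with numbers as labelled and 14544 with them crossed. The member changes kept their sign in all alternatives except for 2 genes under tryptophan depletion whose libraries overlapped the untreated ones. TEAD1 was at 0.0068 with all 6 libraries in the fit and between -0.053 and 0.052 when a library was left out, and WWTR1, -0.36 as reported, between -0.73 and 0.018, with 0.018 without tryptophan-depleted replicate 1. Of the named list genes, VGLL1 under histidine depletion (0.20) and MAP4K2 (0.00014) and VGLL4 (0.037) under tryptophan depletion changed sign after quantile normalization, none of them called as reported. Leaving out a library gave -0.17 to 0.14 for VGLL1 and -0.13 to 0.067 for ANXA1 under histidine depletion, and -0.28 to 0.33 for CCN3, which was at -0.030 after quantile normalization. With a library left out, the median of the TEAD and VGLL genes under histidine depletion ran from -0.17 to 0.0013, that of the Hippo kinases under tryptophan depletion from -0.059 to 0.014, and that of the fetal-like genes under tryptophan depletion from -0.071 to 0.24, with -0.064 without the filter on low values. AMOT was 0.91 higher (log2) without histidine than without tryptophan, and was not called without the variance trend (0.91), with DESeq2 (0.81) or without tryptophan-depleted replicate 1 (0.34). Among the members, depth limits ANKRD1 and WWTR1 most. Causes were not tested.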
